A study of Homo sapiens with 4 samples.

Results

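The proteasome genes examined here code for the subunits, activators, inhibitor and assembly factors of the protease complex that degrades ubiquitin-tagged proteins. They were compared between MV4-11R and MV4-11, human acute myeloid leukaemia cell lines, on 2 arrays each. MV4-11, the drug-sensitive parent, carries an MLL fusion and an activating duplication in the kinase FLT3, as is known of this line. MV4-11R came from it by 3 months in rising doses of PKC412 (midostaurin), a kinase inhibitor that blocks FLT3. It is a single resistant line, so the comparison describes that line and not resistance in general, and the labels do not say whether PKC412 was present at harvest. The labels give EZH2 as low in MV4-11R and high in MV4-11. A fixed list of 41 gene symbols defined the set, and 38 of them had a probe set that the array's annotation assigns to 1 gene, out of 18417 genes tested. PSMC5, PSMD7 and PSMD13 are not analysed here. Values are log2 signal after RMA normalization, and the brightest probe set, by its 4-array mean, stood for each gene. Differences are MV4-11R minus MV4-11.

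The barrel of the proteasome, the 20S core, is built from alpha subunits, which form the outer rings and the gate, and beta subunits, some of which carry the protease sites. The 19S cap sits on its ends, binds ubiquitin chains, removes them and threads the protein into the barrel by means of a ring of ATPases. Interferon replaces the catalytic beta subunits with inducible ones, giving the immunoproteasome, which makes peptides for MHC class I, and induces the activator PSME1-PSME2. The factor NFE2L1 raises transcription of subunit genes through antioxidant response elements when proteasome activity falls short. Blood cells of the myeloid and lymphoid lineages hold both constitutive and inducible beta subunits.

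On these 4 arrays, the 8 measured myeloid markers averaged above 6.26, though CD14 read 7.24 and 6.49 in MV4-11R, against 6.05 and 6.13 in MV4-11, under that value. Examples were SPI1 between 11.34 and 11.52 and LYZ between 11.72 and 12.57. The B cell gene MS4A1, the T cell genes CD3D and CD3E, the erythroid gene HBB and the epithelial gene EPCAM stayed under 6.26. That value, the 95th percentile of 341 olfactory receptor genes, serves as a guide to background, and all 38 proteasome genes averaged above it over the 4 arrays. Markers of other cell types were not all low, with CD79A (B cell) at 7.54 to 7.79, COL1A1 (fibroblast) at 7.64 to 7.87, KRT18 (epithelial) at 7.41 to 8.14 and NKG7 (NK and T cell) at 10.33 to 11.37, of which NKG7 rose and KRT18 fell. Of the 8 myeloid markers measured, LYZ, FLT3, CSF1R and PTPRC fell in MV4-11R and 0 rose. Over all genes 7.13% fell and 7.92% rose. Of the 8 differences, 5 were negative and 3 positive, among the latter MPO (0.47) and CD14 (0.77), which did not pass. The part of these markers in the proteasome results was not tested.

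The promoters of the 6 members that passed the test are shown first, with that of the immunoproteasome gene PSMB10 for comparison, because subunit genes are known to share promoter elements. Each sequence is the 250 bases before the transcription start in RefSeq (build GRCh38.p14), read 5′ to 3′ on the gene's strand. PSMD6 lies at chr3:64023495-64023744 (minus strand), PSME4 at chr2:53970994-53971243 (minus strand), PSMC4 at chr19:39970915-39971164 (plus strand), PSMD12 at chr17:67366578-67366827 (minus strand), PSMD5 at chr9:120842923-120843172 (minus strand), PSMA3 at chr14:58244593-58244842 (plus strand) and PSMB10 at chr16:67936851-67937100 (minus strand). Capitals mark a strict antioxidant response element, a CCAAT box, the ETS core CGGAAG or the core of an interferon-stimulated response element, on either strand.
PSMD6: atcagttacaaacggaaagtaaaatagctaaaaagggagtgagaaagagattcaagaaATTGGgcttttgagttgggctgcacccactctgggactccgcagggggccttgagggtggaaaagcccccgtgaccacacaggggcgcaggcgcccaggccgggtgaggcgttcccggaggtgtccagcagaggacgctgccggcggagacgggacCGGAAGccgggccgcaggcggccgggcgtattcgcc
PSME4: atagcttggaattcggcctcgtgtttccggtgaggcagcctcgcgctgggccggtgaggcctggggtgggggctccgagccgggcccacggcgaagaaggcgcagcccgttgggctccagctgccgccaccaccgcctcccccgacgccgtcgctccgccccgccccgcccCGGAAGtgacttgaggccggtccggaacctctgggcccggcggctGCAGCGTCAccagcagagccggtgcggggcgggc
PSMC4: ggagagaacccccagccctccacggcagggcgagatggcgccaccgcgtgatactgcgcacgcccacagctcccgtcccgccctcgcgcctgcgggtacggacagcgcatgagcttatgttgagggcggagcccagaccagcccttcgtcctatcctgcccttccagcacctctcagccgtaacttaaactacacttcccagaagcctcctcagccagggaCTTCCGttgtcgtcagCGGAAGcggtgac
PSMD12: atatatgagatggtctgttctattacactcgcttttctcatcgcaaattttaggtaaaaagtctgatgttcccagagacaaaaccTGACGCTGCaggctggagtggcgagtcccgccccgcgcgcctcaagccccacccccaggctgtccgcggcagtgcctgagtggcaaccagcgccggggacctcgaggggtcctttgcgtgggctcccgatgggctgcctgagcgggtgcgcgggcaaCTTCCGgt
PSMD5: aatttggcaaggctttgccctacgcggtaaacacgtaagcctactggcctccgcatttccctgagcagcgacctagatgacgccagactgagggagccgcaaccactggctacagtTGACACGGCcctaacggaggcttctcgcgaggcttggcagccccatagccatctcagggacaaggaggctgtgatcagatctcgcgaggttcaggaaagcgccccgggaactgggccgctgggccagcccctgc
PSMA3: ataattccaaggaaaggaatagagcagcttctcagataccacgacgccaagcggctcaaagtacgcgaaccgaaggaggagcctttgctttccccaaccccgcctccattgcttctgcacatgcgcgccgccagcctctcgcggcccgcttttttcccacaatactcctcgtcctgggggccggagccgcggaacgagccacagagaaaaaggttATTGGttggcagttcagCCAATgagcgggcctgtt
PSMB10: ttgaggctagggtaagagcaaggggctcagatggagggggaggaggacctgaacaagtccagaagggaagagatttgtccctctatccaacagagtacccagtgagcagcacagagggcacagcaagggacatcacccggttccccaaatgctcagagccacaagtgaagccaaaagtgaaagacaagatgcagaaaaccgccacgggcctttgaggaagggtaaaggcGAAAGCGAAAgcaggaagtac

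Promoters were found for 33 of the 38 measured members, taking the first listed start for the 6 genes with several. The 35116 promoters set beside them count every listed start, of genes at any level of signal, so the sets are unlike. The motifs, searched on both strands, were chosen with the differences between the lines in view. The strict antioxidant response element TGACNNNGC occurred in 8 of 33 (24.2%), against 10.9% of 35116 promoters of the same length, and its looser form TGANNNNGC, which includes it, in 54.5% against 35.2%. The ETS core CGGAAG was present in 17 of 33 (51.5%), against 16.5% of all promoters, and the longer CCGGAAG, which contains it, in 24.2% against 8.52%. For the CCAAT box the shares were 36.4% and 32.0%. The interferon-gamma activated site core TTCNNNGAA was found in 12.1% against 6.57%, and the interferon-stimulated response element core in 12.1% against 3.02%. Among the 6 genes that rose, PSME4, PSMD12 and PSMD5 held the strict antioxidant element. PSMD6, PSME4, PSMC4 and PSMD12 held the ETS core, and PSMD6 and PSMA3 a CCAAT box. The other members with the strict element did not pass, namely PSMB3 (difference 0.49), PSMD3 (0.10), PSMD9 (-0.08), PSME1 (-0.13) and PSME2 (0.18). A link between motif and difference was not tested. PSMB10 held the interferon-stimulated core, as did PSMA4 (difference 0.30), PSMB4 (0.12) and PSME2 (0.18), and none of them passed. The window of PSMB8 held no such match. A match describes the letters in this window and no binding was measured.

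Transcripts of most core and cap subunits read modestly higher in MV4-11R. Of the 38 genes measured, 6 rose (the lid subunits PSMD6 and PSMD12, the ATPase PSMC4, the activator PSME4, the cap assembly chaperone PSMD5 and the alpha subunit PSMA3), 0 fell and 32 did not pass limma's test at an adjusted p under 0.05. Over all genes tested 15.1% passed, 7.92% higher and 7.13% lower in MV4-11R, and 11.7% rose among the 7817 genes at least as bright as the dimmest member, beside 15.8% of the members. The differences of single genes ran from -0.44 to 0.76 with a median of 0.23, against 0.01 over all genes and 0.04 over those 7817. In sign, 33 of 38 were positive (86.8%), against 51.5% of all genes and 53.8% of those 7817. Both MV4-11R arrays lay above both MV4-11 arrays for 26 of the 38 (68.4%), against 29.6% of all genes and 38.4% of those 7817. Both MV4-11R arrays lay below both MV4-11 arrays for 2, where the share of all genes was 26.0% (55.6% in either direction). SEs of the single differences were between 0.10 and 0.18. Fits that leave out 1 array hold 1 array in a line and have less power, so they lose calls over all genes too. The count of rises was smaller in each of them. It was 1 when either MV4-11 array was dropped (replicate 1 or replicate 2), 1 when replicate 1 of MV4-11R was dropped and 4 when its replicate 2 was, and the 1 gene that passed in each of the 11 alternative settings was PSMD6.

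**Figure D1:**
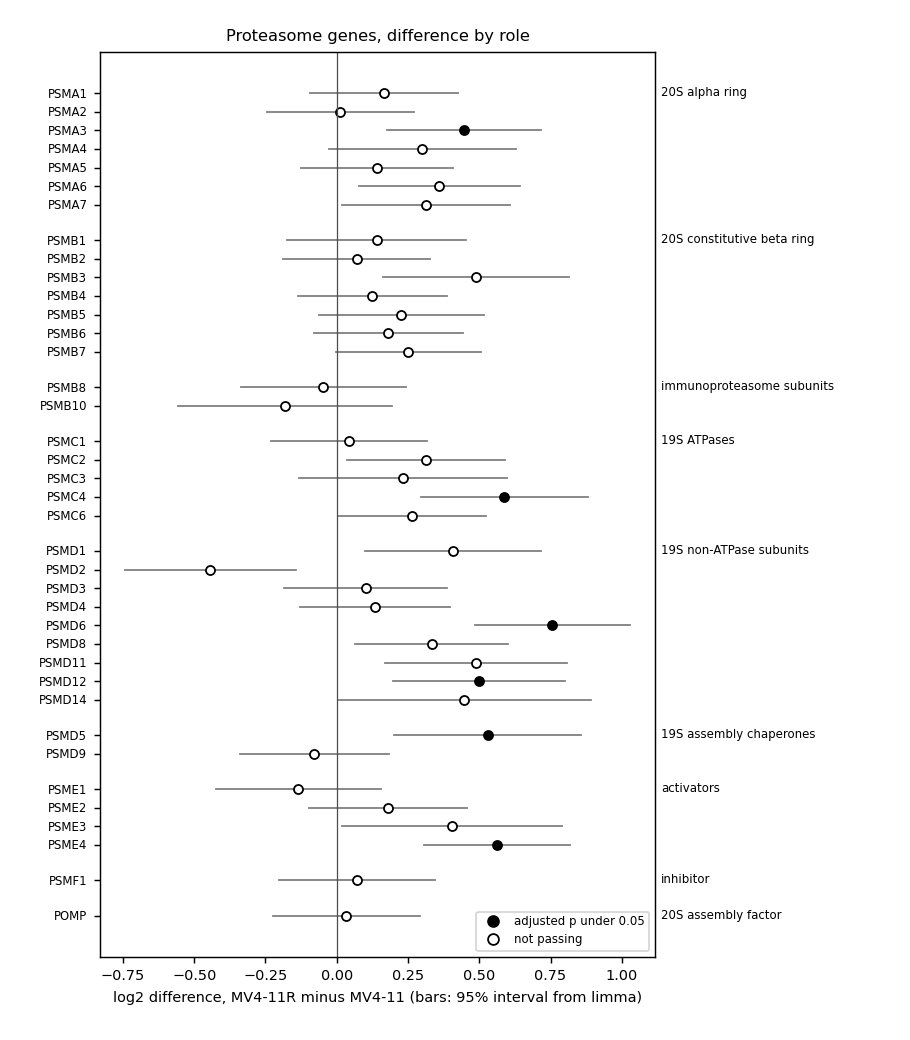
Log2 difference (MV4-11R minus MV4-11, horizontal axis) of each measured proteasome gene, grouped by role, with limma's 95% interval as a bar and filled points for an adjusted p under 0.05. Most points lie right of 0, the 6 filled ones between 0.45 and 0.76, while PSMD2 lies left at -0.44.

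In the 20S core, all 14 alpha and constitutive beta genes had positive differences, with a median of 0.20, and 1 passed. Over all genes 51.5% were positive and 7.92% rose, and among the 7817 bright genes 53.8% and 11.7%. These shares are to be set beside this role and those below, and no role was tested as a set. PSMA3, an alpha ring subunit (Entrez gene 5684, chromosome 14), read 10.61 and 10.54 in MV4-11R, against 10.19 and 10.07 in MV4-11. The lines did not overlap, and the gene rose 1.36-fold (log2 difference 0.45, SE 0.11, adjusted p = 0.0470). It no longer passed when any 1 array was dropped, at adjusted p of 0.112 and 0.198 for replicates 1 and 2 of MV4-11, and of 0.154 and 0.0917 for those of MV4-11R. The other alpha genes ran from 0.01 for PSMA2 to 0.36 for PSMA6, with PSMA7 at 0.31, PSMA4 at 0.30, PSMA1 at 0.17 and PSMA5 at 0.14. None of these 6 passed, and PSMA2 was the 1 alpha gene whose arrays overlapped between the lines.

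The 7 constitutive beta genes had a median difference of 0.18 and 0 passed. PSMB3, a structural beta subunit with no protease site, read 11.16 and 11.42 in MV4-11R and 10.74 and 10.87 in MV4-11 (difference 0.49, SE 0.13, 95% interval 0.16 to 0.81, adjusted p = 0.0617). PSMB5, which carries the chymotrypsin-like site that bortezomib blocks, read 9.61 and 9.73 in MV4-11R and 9.36 and 9.53 in MV4-11. Its difference was 0.23 (SE 0.12, interval -0.06 to 0.52, adjusted p = 0.287). PSMB7, with the trypsin-like site, read 10.83 and 10.80 in MV4-11R, against 10.57 and 10.56 in MV4-11 (difference 0.25, SE 0.10, adjusted p = 0.180). Both genes read higher on each MV4-11R array than on either MV4-11 array, by less than the test could call. PSMB6, with the caspase-like site, had a difference of 0.18, PSMB1 of 0.14, PSMB4 of 0.12 and PSMB2 of 0.07.

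Of the inducible beta subunits, PSMB8 and PSMB10 had differences under 0 and neither passed. PSMB8, which takes the place of PSMB5, read 8.62 and 8.82 in MV4-11R and 8.77 and 8.76 in MV4-11, a difference of -0.05 (SE 0.12, interval -0.34 to 0.24, adjusted p = 0.862). Its 3 probe sets held identical values. PSMB10, which replaces PSMB7, read 9.42 and 9.43 in MV4-11R and 9.41 and 9.80 in MV4-11 (difference -0.18, SE 0.15, interval -0.56 to 0.19, adjusted p = 0.530). For both genes the lines overlapped. PSMB9, the third inducible subunit, which replaces PSMB6 and is not in the set of 41, read 8.57 and 8.58 in MV4-11R, against 9.21 and 9.50 in MV4-11. It fell 1.72-fold (log2 difference -0.78, SE 0.13, adjusted p = 0.0157). PSMB8 and PSMB9 lie in the MHC region of chromosome 6, where the median difference of 30 neighbouring genes was -0.45 for PSMB8 and -0.49 for PSMB9. With that shift taken off, PSMB9 was at -0.29 (adjusted p = 0.205) and PSMB8 at 0.40 (adjusted p = 0.0756). With replicate 2 of MV4-11 dropped, PSMB9 was at -0.63 (adjusted p = 0.0564).

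Each inducible subunit was also set against the constitutive one it replaces, as a log2 ratio within an array, of which the change between lines, and not the level, can be read. The ratio of PSMB8 to PSMB5 was lower by 0.27 in MV4-11R (change -0.27), that of PSMB10 to PSMB7 changed by -0.43 and that of PSMB9 to PSMB6 by -0.96. In each of the 3 pairs both MV4-11R arrays lay below both MV4-11 arrays, as they did for 26.0% of all genes taken singly. The exact 2-sided permutation p was 0.333 for each, the smallest that 2 arrays against 2 allow, so none could pass, also before adjustment over the pairs. With the neighbours' median taken off each gene, an alternative added after seeing the data, the change for PSMB8 over PSMB5 turned to 0.26, while those for PSMB10 over PSMB7 and PSMB9 over PSMB6 were -0.37 and -0.29.

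**Figure D2:**
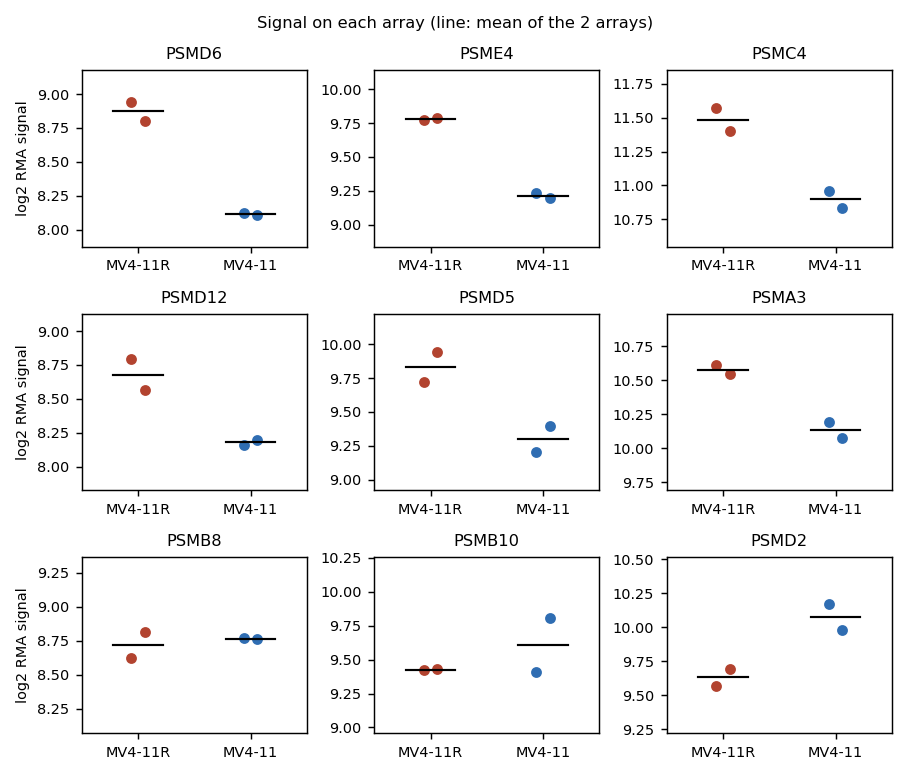
Log2 RMA signal (vertical axis, 1.3 units high in each panel) on the 2 MV4-11R and the 2 MV4-11 arrays, with the mean as a line, for the 6 genes that rose and for PSMB8, PSMB10 and PSMD2. The lines do not overlap for the 6 genes, overlap for PSMB8 and PSMB10, and are apart in the other direction for PSMD2.

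In the 19S cap, 13 of 14 measured subunits had positive differences, with a median of 0.32, and 3 rose. Among the ATPases, PSMC4 (Entrez gene 5704, chromosome 19) read 11.57 and 11.40 in MV4-11R, against 10.96 and 10.83 in MV4-11, and rose 1.50-fold (log2 difference 0.59, SE 0.12, adjusted p = 0.0267). Dropping replicate 1 or 2 of MV4-11 ended the call (adjusted p = 0.0628 and 0.110), as did dropping replicate 1 of MV4-11R (0.0985). PSMC2 was at 0.31 (adjusted p = 0.129), PSMC6 at 0.26, PSMC3 at 0.23 and PSMC1 at 0.04, and none of these 4 passed. PSMC1 and PSMC6 have a second probe set each, which gave 0.05 for PSMC1 and 0.14 for PSMC6, and whether a probe set also reads a near-identical copy of its gene was not tested.

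The lid holds the enzyme that cuts off ubiquitin chains and the scaffold around it. PSMD6, a lid scaffold subunit (Entrez gene 9861, chromosome 3), read 8.94 and 8.80 in MV4-11R, against 8.12 and 8.11 in MV4-11. It had the largest difference of the 38 genes and rose 1.69-fold (log2 difference 0.76, SE 0.11, 95% interval 0.48 to 1.03, adjusted p = 0.0103), with adjusted p between 0.00901 and 0.0403 over the 11 alternatives. PSMD12, another lid scaffold subunit (Entrez gene 5718, chromosome 17), read 8.79 and 8.56 in MV4-11R, against 8.16 and 8.20 in MV4-11, and rose 1.41-fold (log2 difference 0.50, SE 0.12, adjusted p = 0.0465). Its call ended when replicate 1 or 2 of MV4-11 was dropped (adjusted p = 0.159 and 0.130), when replicate 1 of MV4-11R was (0.166), with an intensity trend in the prior (0.0521), and narrowly with a second quantile normalization.

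Among the other lid genes, PSMD11, whose protein bridges lid and core, read 10.63 and 10.38 in MV4-11R and 10.07 and 9.96 in MV4-11 (difference 0.49, SE 0.13, adjusted p = 0.0580, or 0.0455 with replicate 2 of MV4-11R dropped). PSMD14, the deubiquitinating enzyme of the lid, had the largest SE of the set, with 10.35 and 10.03 in MV4-11R and 9.94 and 9.54 in MV4-11 (difference 0.45, SE 0.18, adjusted p = 0.171). PSMD8 was at 0.33 and PSMD3 at 0.10, neither passing. All 6 measured lid genes of the set had positive differences, and 2 passed. SEM1, a small lid subunit outside the set, was at 0.036 (adjusted p = 0.906), with overlapping arrays.

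Of the 3 measured non-ATPase subunits of the base, 0 passed. PSMD1 and PSMD2 are its large scaffold proteins, and PSMD2 docks factors that deliver ubiquitinated proteins. PSMD2 read 9.57 and 9.69 in MV4-11R, against 10.17 and 9.98 in MV4-11 (difference -0.44, SE 0.12, interval -0.74 to -0.14, adjusted p = 0.0631). PSMD1 read 9.86 and 9.98 in MV4-11R, against 9.62 and 9.40 in MV4-11 (difference 0.41, SE 0.13, interval 0.10 to 0.72, adjusted p = 0.0861). Neither passed, though the lines were apart for both, in opposite directions, and no other cap subunit had a negative difference. Over all genes the lines were apart for 55.6%, with 29.6% higher and 26.0% lower in MV4-11R. The log2 ratio of PSMD2 to PSMD1, chosen after these values were seen, changed by -0.85 between the lines (exact permutation p = 0.333, the smallest possible). PSMD4, a ubiquitin receptor, was at 0.13 (adjusted p = 0.507).

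Of the free chaperones that help to assemble the base, 1 of the 2 in the set rose. PSMD5 (Entrez gene 5711, chromosome 9), which holds ATPase subunits before they join the cap, read 9.72 and 9.94 in MV4-11R, against 9.21 and 9.39 in MV4-11, and rose 1.44-fold (log2 difference 0.53, SE 0.13, adjusted p = 0.0492). The PSMD5 call ended when any array was dropped, at adjusted p of 0.201 and 0.0791 for replicates 1 and 2 of MV4-11 and of 0.0596 and 0.153 for those of MV4-11R, and with median centring (0.0555). PSMD9, which binds another ATPase pair, read 7.92 and 7.85 in MV4-11R and 7.94 and 7.99 in MV4-11 (difference -0.08, adjusted p = 0.723). The difference between the 2 genes was not tested. Outside the set, the base chaperones PSMD10 and PAAF1 were at 0.24 (adjusted p = 0.454) and -0.07 (0.854), with overlapping arrays.

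Of the activators, which open the gate of the core without the cap, 1 of 4 rose. PSME4, the nuclear activator PA200 (Entrez gene 23198, chromosome 2), read 9.77 and 9.78 in MV4-11R, against 9.23 and 9.19 in MV4-11, and rose 1.48-fold (log2 difference 0.56, SE 0.10, adjusted p = 0.0201). The arrays of each line lay close together, and dropping any 1 array still ended the call, at adjusted p of 0.0738 and 0.0865 for replicates 1 and 2 of MV4-11 and of 0.0629 and 0.0553 for those of MV4-11R, while the difference stayed between 0.54 and 0.58. PSME3, the other nuclear activator, read 11.51 and 11.17 in MV4-11R and 11.06 and 10.81 in MV4-11 (difference 0.40, SE 0.16, adjusted p = 0.156). The interferon-inducible pair was closer to 0. PSME1 read 10.62 and 10.76 in MV4-11R and 10.75 and 10.89 in MV4-11, a difference of -0.13 (interval -0.42 to 0.15, adjusted p = 0.547). PSME2 read 10.37 and 10.46 in MV4-11R and 10.30 and 10.18 in MV4-11, a difference of 0.18 (interval -0.10 to 0.46, adjusted p = 0.380).

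PSMF1, an inhibitor of the core in vitro, read 11.87 and 11.72 in MV4-11R and 11.72 and 11.73 in MV4-11 (difference 0.07, SE 0.11, adjusted p = 0.762). POMP, the chaperone that drives the final joining of the core, read 11.89 and 11.96 in MV4-11R and 11.89 and 11.89 in MV4-11, a difference of 0.03 with an interval of -0.23 to 0.29 (adjusted p = 0.893). Neither gene differed beyond the spread between arrays.

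Mean deviations by role were also taken on each array. They restate the single differences above, since by construction the average deviations of the lines are opposite in sign. Genes are not replicates of a line. As a mean deviation from each gene's 4-array mean, the 14 core genes stood at 0.10 and 0.13 on the MV4-11R arrays, against -0.09 and -0.14 on the MV4-11 arrays. The 14 cap subunits stood at 0.19 and 0.11 on the MV4-11R arrays, against -0.09 and -0.21 on the MV4-11 arrays. For the immunoproteasome pair the deviations were -0.11 and -0.01 on the MV4-11R arrays, and -0.04 and 0.15 on the MV4-11 arrays, which overlapped. The lines did not overlap in the core or cap means.

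**Figure D3:**
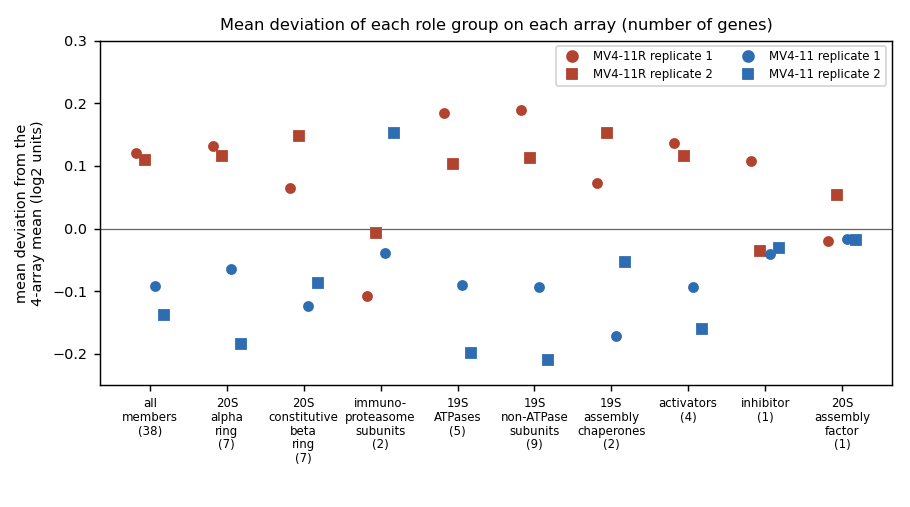
Mean deviation from each gene's 4-array mean (vertical axis, log2 units) of the measured genes of each role, with 1 point per array and the number of genes in brackets. The MV4-11R points lie above the MV4-11 points for the alpha ring, the beta ring, the ATPases, the non-ATPase subunits, the cap chaperones and the activators, and mix with them for the immunoproteasome pair, the inhibitor and POMP.

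Since neighbouring genes can differ together between lines, each member was set beside its 30 nearest genes of at least median level. The 38 members lay on 15 chromosomes, 7 of them on chromosome 14 and 6 on chromosome 17, and their neighbours had a median difference of 0.05. With the neighbours' median taken off each gene, the median of the members was 0.21, against 0.23 before. The neighbours' median was taken off as a fixed value, so adjusted p after that step, here and below, leave out its uncertainty. PSMD6 was then at 0.60 (adjusted p = 0.0211), PSMD5 at 0.55 (0.0444), PSME4 at 0.53 (0.0242), PSMD12 at 0.53 (0.0391) and PSMC4 at 0.49 (0.0457). PSMA3 lost its call at 0.30 (0.128). For PSMA7 on chromosome 20 the neighbours stood at 0.24 of its 0.31, and for PSMF1 on the same chromosome at 0.25 against its own 0.07.

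**Figure D4:**
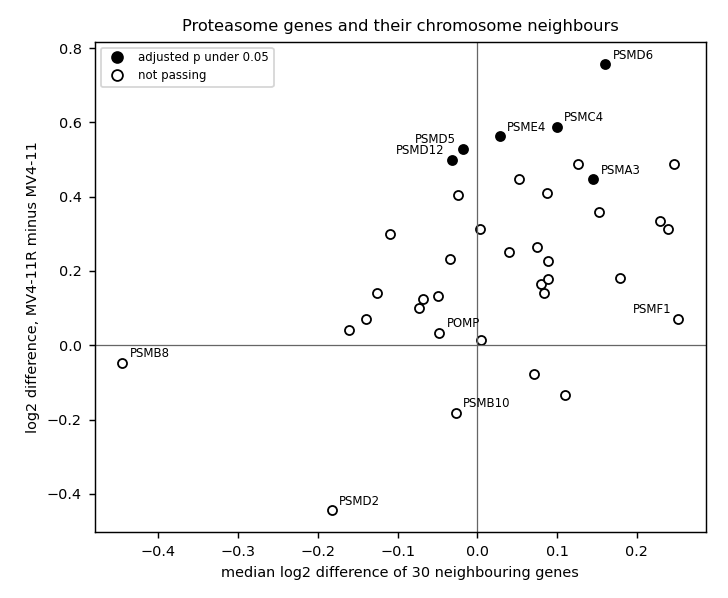
Log2 difference of each measured proteasome gene (vertical axis, MV4-11R minus MV4-11) against the median log2 difference of its 30 neighbouring genes (horizontal axis), filled where the adjusted p was under 0.05. The filled points have neighbours between -0.03 and 0.16, and PSMB8 stands apart with neighbours at -0.45.

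Among the assembly chaperones outside the set of 41, PSMG1 had the largest difference. PSMG1, which with PSMG2 guides assembly of the alpha ring (chromosome 21), read 10.22 and 9.86 in MV4-11R, against 8.78 and 8.50 in MV4-11. It rose 2.64-fold (log2 difference 1.40, SE 0.17, interval 0.99 to 1.81, adjusted p = 0.00528), and passed in each alternative. Its partner PSMG2 was at 0.19 (interval -0.08 to 0.45, adjusted p = 0.335), and at -0.16 (0.381) with its neighbours' median taken off. In the second chaperone pair PSMG4, chosen after its value was seen, rose 1.55-fold, reading 7.23 and 6.98 in MV4-11R, against 6.55 and 6.40 in MV4-11 (adjusted p = 0.0299). PSMG3 was at 0.30 (adjusted p = 0.162). The PSMG4 call ended when replicate 1 or 2 of MV4-11 was dropped (0.0630 and 0.113), when replicate 1 of MV4-11R was (0.103), and when the neighbours' median was taken off (0.102).

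Of all 14 other subunits and assembly chaperones, 3 rose, 1 fell (PSMB9) and 10 did not pass. Over all genes 7.92% rose and 7.13% fell, shares to set beside this list and those below. No list was tested as a set. PSMA8, the testis form of an alpha subunit, rose by 0.66 (adjusted p = 0.0431), where its neighbours on chromosome 18 had a median of 0.69, and its call ended when replicate 1 of MV4-11 (0.148) or either array of MV4-11R (0.131 and 0.0738 for replicates 1 and 2) was dropped. The ubiquitin receptor ADRM1 was at 0.37 (adjusted p = 0.193). AKIRIN2, which carries proteasomes into the nucleus, was at -0.31 (adjusted p = 0.133), and at -0.47 (0.0422) with its neighbours' median taken off.

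Among 11 measured enzymes and shuttle factors that bind the proteasome, 2 rose, 2 fell and 7 did not pass. The shares over all genes were 7.92% and 7.13%. The ubiquitin ligase UBE3C, which extends chains on stalled substrates, rose 1.46-fold (9.60 and 9.54 in MV4-11R, against 9.05 and 9.02 in MV4-11, adjusted p = 0.0231). ZFAND5, which stimulates the 26S proteasome, fell by 0.998 on the log2 scale (8.72 and 8.78 in MV4-11R, against 9.71 and 9.78 in MV4-11, adjusted p = 0.00407) and passed in each alternative. The redox protein TXNL1 rose by 0.49 (adjusted p = 0.0430) and the shuttle factor UBQLN1 fell by 0.51 (difference -0.51, adjusted p = 0.0290). Neighbours of TXNL1 on chromosome 18 had a median of 0.64, and those of UBQLN1 on chromosome 9 one of -0.55. Dropping replicate 1 or 2 of MV4-11, or replicate 1 or 2 of MV4-11R, ended the call on UBE3C (0.0856, 0.0959, 0.0836 and 0.0502) and that on UBQLN1 (0.133, 0.0837, 0.102 and 0.0623). For TXNL1 it ended with replicate 1 or 2 of MV4-11 (0.126 and 0.154) or replicate 1 of MV4-11R (0.156) dropped. With the neighbours' median taken off, TXNL1 turned to -0.15 (0.429) and UBQLN1 to 0.035 (0.859).

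Of 8 regulators and suppliers of substrate, 1 rose, 0 fell and 7 did not pass (over all genes, 7.92% rose and 7.13% fell). UFD1, a cofactor of the unfolding ATPase VCP, rose 1.42-fold (9.41 and 9.22 in MV4-11R, against 8.83 and 8.79 in MV4-11, adjusted p = 0.0396), a call that ended with replicate 1 or 2 of MV4-11 (0.118 and 0.140) or replicate 1 of MV4-11R (0.145) dropped. NFE2L1, named after its value was seen, read 10.19 and 9.88 in MV4-11R and 10.13 and 9.65 in MV4-11 (difference 0.15, interval -0.33 to 0.62, adjusted p = 0.717). Its activity is set by cleavage of the protein, which arrays do not measure. Of 3 measured genes of ubiquitin and its activation 0 passed, the largest difference being -0.28 for the activating enzyme UBA1 (adjusted p = 0.233).

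Interferon-induced antigen processing genes share regulation with the inducible subunits. Of 9 measured, 0 rose, 2 fell and 7 did not pass (over all genes, 7.92% rose and 7.13% fell). IRF8, an interferon-responsive factor of myeloid cells, fell 2.75-fold (10.33 and 10.51 in MV4-11R, against 11.90 and 11.86 in MV4-11, adjusted p = 0.00192) and passed in each alternative. Of the other factors measured, NLRC5 was at 0.46 (adjusted p = 0.0729) and IRF1 at -0.04 (0.916), neither passing. TAPBP, a chaperone of MHC class I, fell 1.53-fold (adjusted p = 0.0218) beside neighbours at -0.51 on chromosome 6. Its call ended with replicate 1 or 2 of MV4-11 (0.0592 and 0.0910) or replicate 1 of MV4-11R (0.0806) dropped, and with its neighbours' median taken off, at -0.10 (0.611). TAP1, next to PSMB9 in the genome, was at 0.30 (adjusted p = 0.245), and at 0.80 (0.0200) with its neighbours' median taken off. The second adjusted p treats that median as exact, and TAP1 did not pass without that step.

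**Figure D5:**
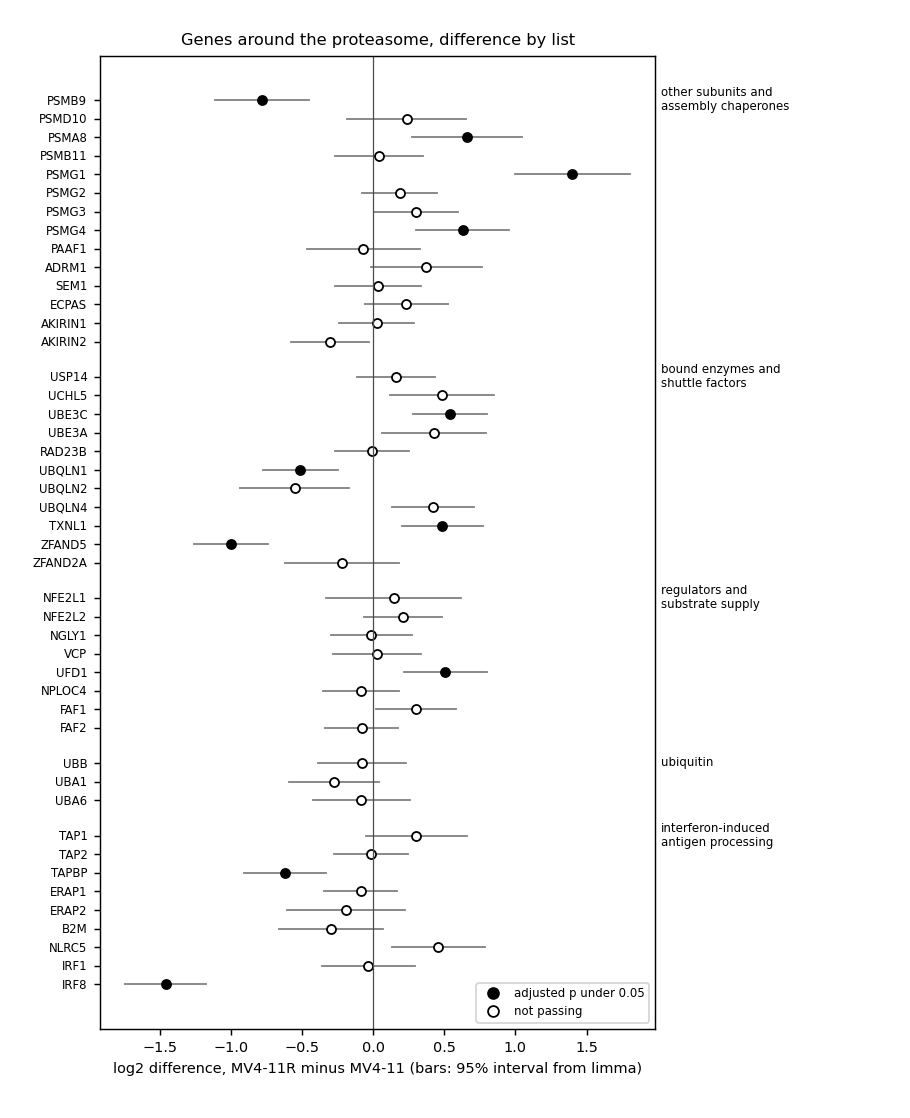
Log2 difference (MV4-11R minus MV4-11, horizontal axis) of genes that assemble, feed or regulate the proteasome, by list, with limma's 95% interval as a bar and filled points for an adjusted p under 0.05. PSMG1 lies farthest to the right at 1.40, and IRF8 and ZFAND5 farthest to the left at -1.46 and -0.998.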

How the data were processed

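RNA of 2 MV4-11R and 2 MV4-11 samples was measured on Affymetrix arrays. The deposited values are log2 signals per probe set, made by the authors. The submitters' processing notes name RMA and Affymetrix Expression Console, with versions not given in the sources used here. The log2 scale was read from the range of the values, with array medians of 6.75 to 6.78. RMA is known to compress differences, and 4 arrays limit the precision.

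Of 33297 probe sets, 19460 were annotated to 1 gene, 1754 to several, and 12083 are unnamed here, and symbols were updated through Entrez IDs to RefSeq (GRCh38.p14). The brightest probe set stood for each of 18417 genes. Limma 3.58.1 in R 4.3.3 (lmFit, eBayes, 2-sided) was fitted across all genes without a filter or block, with Benjamini-Hochberg adjustment over all genes, on 2 residual degrees of freedom, or 6.06 with the prior. The script was tested on simulated data, with variances drawn from limma's fitted prior and 200 genes changed per run, fewer than passed here. It recovered 0.896% of changes of 0.5 log2 units, 57.3% of those of 1 and 97.0% of those of 2. Of its calls 4.98% were false. A gene that did not pass may thus still differ by a small amount. The labels do not say that replicates were separate cultures, so the p-values rest on array-to-array spread that may be technical only.

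The members, gene lists and motifs were chosen with earlier results of these data known. Named with values were the passing members, the largest difference in a role without one, and PSMB5, PSMB7, PSMB8, PSMB10, PSME1, PSME2 and POMP, and from each related list up to 2 rises and 2 falls or the largest difference. Other genes given with values or array readings, such as PSMD1, PSMD11, PSMD14, PSMG2, PSMG3, ADRM1, AKIRIN2, NLRC5, IRF1 and TAP1, were chosen after their values were seen. Alternatives left out each array, added a replicate block, median centring, quantile normalization, a filter at the 25th percentile of level, the mean over probe sets or an intensity trend in the prior, or removed the median difference of 30 neighbouring genes.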

Additional observations from a re-analysis of the deposited data

How the results depend on the processing

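The median difference of the proteasome genes stayed positive in all 11 alternatives, between 0.19 and 0.25, and in none of them did a member fall. Their number of calls was 6, and between 1 and 4 when 1 array was left out, while that of all genes was 2772, and between 1588 and 2479. With 1 array left in a line, that array is assumed to vary like the others. The median of the members ran from 0.19 to 0.25 without 1 array, with 0.20 without MV4-11R replicate 2. With the replicate block, 10 members and 3642 genes passed, the members added being PSMB3, PSMD11, PSMD14 and PSME3. Replicate numbers are not described as a shared day or culture, and the differences between replicates of the lines correlated at 0.26 across genes, so the block is given only here. In the other settings 5 to 8 members passed. With the regional shift removed, the difference turned to -0.031 for PSMA8, 0.035 for UBQLN1, -0.15 for TXNL1 and 0.48 for TAP2 (adjusted p = 0.0345 for TAP2, where it was 0.962). The shift is treated as exact there, so the adjusted p leaves out its uncertainty. Apart from cell type markers, the difference also changed sign for PSMG2 (-0.16), PSMF1 (-0.18), PSMB8 (0.40) and SEM1 (-0.042), named genes that did not pass either way. Among the markers it did so for CD79A (-0.068) and SPI1 (0.045), for example. The cause was not tested. All 38 measured members averaged above the background guide, and the 2 arrays per line limit the precision.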
